A study of Mus musculus with 12 samples.

Results

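RNAseq of striatum and cortex from post-symptomatic R6/2 mice was compared region against region: 2 striatum libraries (postHD STR) and 2 cortex libraries (postHD CTX), chosen by their labels, out of 12 libraries in all. R6/2 mice carry a transgene of the first exon of human HTT with an expanded CAG repeat, driven by the human HTT promoter, and serve as a model of Huntington's disease (HD). The post-symptomatic HD mice were 13 weeks old by the labels. For comparison there were 4 libraries of WT littermates, 1 of striatum and 1 of cortex at 13 weeks and the same at 8 weeks, and 4 libraries of pre-symptomatic HD mice at 8 weeks, 2 of each region. All mice were untreated as far as the labels state. The question was which of the differences between striatum and cortex remained, became smaller or were no longer measurable in symptomatic mice. The labels do not say how many mice went into a library or whether both regions came from the same mouse. The p-values therefore measure only the spread between these libraries. Within each HD group the libraries were of opposite sex by their transcripts and so came from different mice.

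The striatum is built mainly of GABAergic projection neurons. Those of the direct pathway carry the dopamine receptor D1, dynorphin and substance P, and those of the indirect pathway carry the adenosine A2a receptor and enkephalin. They share a set of genes for dopamine and cAMP signalling, and a small population of cholinergic interneurons lies between them. The cortex is built mainly of layered glutamatergic neurons specified by factors such as Neurod2, Emx1 and Tbr1. In HD the striatal projection neurons are the population known to be affected most, and many of their defining transcripts are known to be low before cells are lost. In bulk tissue, fewer cells of a type and less RNA per cell cannot be told apart.

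The postHD STR libraries held 8814386 and 9664091 counts in all and the postHD CTX libraries 10518927 and 11242872, with a highest total of 12091201 in the series. Values are given as CPM, the share of a library's counts in parts per 1e+06 after TMM scaling. By Xist and Y-linked genes, each region of the HD mice held 1 male and 1 female library at each stage. The WT libraries were female at 13 weeks and male at 8 weeks, so age and sex cannot be told apart in WT. 3 libraries stood apart by their markers. Replicate 2 of post-symptomatic HD cortex carried choroid plexus transcripts, with the 17 tested markers summing to 257 and 3823 CPM in the cortex libraries and 362 and 372 CPM in the striatum libraries. Ttr, the transthyretin of choroid plexus, was at 66.6 and 2964 CPM in post-symptomatic HD cortex and 109 and 77.6 CPM in striatum, against 0.314 to 4.59 CPM in the WT libraries and in 3 of the 4 pre-symptomatic libraries. Replicate 2 of pre-symptomatic HD striatum held more oligodendrocyte and thalamus transcripts than any other library, with summed levels of 3713 and 22710 CPM and 355 and 3510 CPM in replicates 1 and 2. The WT striatum library at 8 weeks held cortical transcripts, with Slc17a7 at 66.2 CPM against 7.06 CPM in that at 13 weeks.

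**Figure D1:**
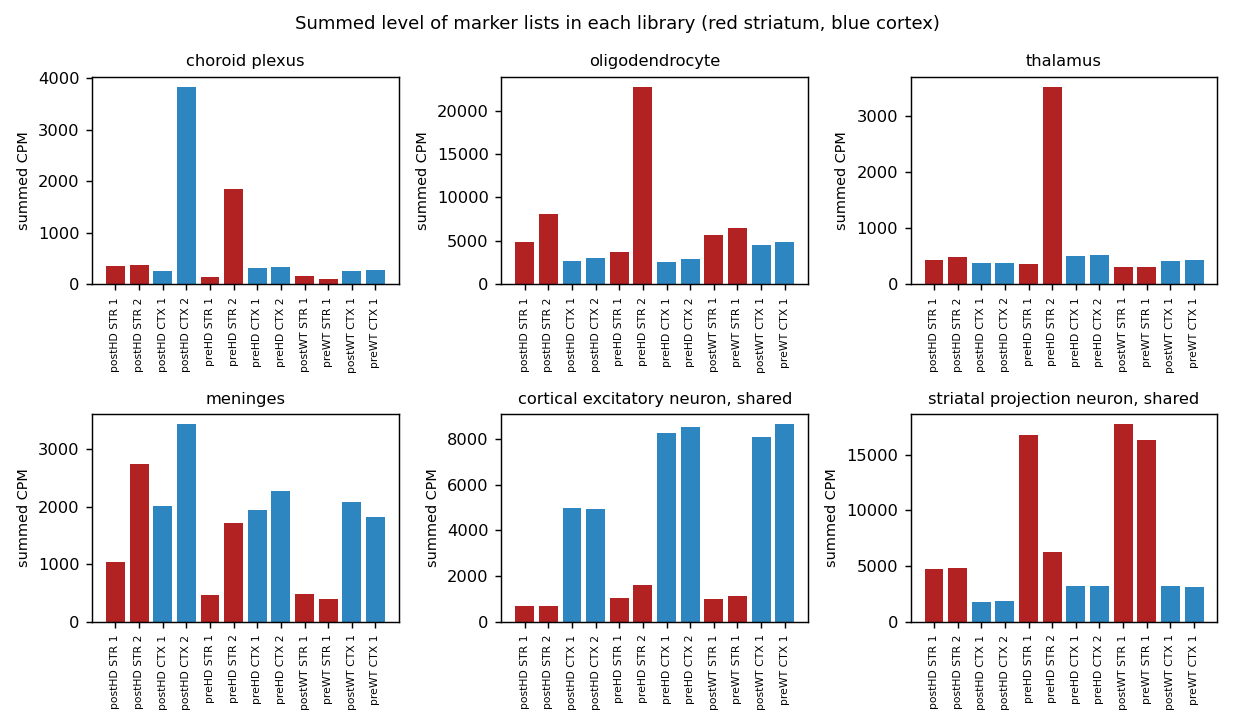
Summed TMM-scaled CPM of 6 marker lists (vertical axes) in each of the 12 libraries (horizontal axes), with striatum in red and cortex in blue. The choroid plexus sum of replicate 2 of post-symptomatic HD cortex was 3823 CPM, against 257 CPM in replicate 1, and the summed striatal projection neuron genes were at 4775 and 4843 CPM in post-symptomatic HD striatum against 17730 and 16340 CPM in WT striatum.

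In post-symptomatic HD mice, striatum and cortex still differed at the genes that define each region. Of 14706 genes tested, 95 (0.646%) were higher in striatum and 277 (1.88%) were higher in cortex at an adjusted p under 0.05. In WT mice the same fit called 575 genes (3.91%) higher in striatum and 896 (6.09%) higher in cortex. Without replicate 2 of post-symptomatic HD cortex, 21 genes were called higher in striatum and 78 higher in cortex, with the lone cortex library assumed to vary like the other groups. DESeq2 called 310 and 517. Without replicate 1 or replicate 2 of pre-symptomatic HD striatum, which the shared estimate of spread includes, the total was 1533 or 1555. Leaving out any of the other HD libraries gave totals between 97 and 229. In 22.5% of all genes every striatum library was above every cortex library, and in 26.9% the reverse held.

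The genes with the largest striatal excess included factors and peptides of striatal neurons. Isl1, a homeodomain factor of direct pathway and cholinergic neurons (chromosome 13, 116298281 to 116309689, minus strand of GRCm38), was at 28.9 and 23 CPM in striatum and 0.0859 and 0.177 CPM in cortex of post-symptomatic HD mice (log2 fold change 7.51, SE 0.55, adjusted p = 0.000157). The cortex value rests on 3 reads, and the ratio of striatum to cortex had a 95% exact interval from 68.1 to 974 for counting error only. Six3, a factor of striatal neuron development, was at 786 and 769 CPM in striatum and 5.16 and 24.5 CPM in cortex (log2 fold change 5.72, SE 0.96, adjusted p = 0.0332). The 2 cortex libraries differed severalfold for Six3 while the striatum libraries were close to each other, and Six3os1 overlaps Six3 on the other strand. Penk, the precursor of enkephalin in indirect pathway neurons, was at 237 and 219 CPM in striatum and 7.91 and 13.5 CPM in cortex (log2 fold change 4.41, SE 0.60, adjusted p = 0.0101). Tac1, the precursor of substance P in direct pathway neurons, was at 178 and 176 CPM in striatum and 9.02 and 8.83 CPM in cortex (log2 fold change 4.31, SE 0.62, adjusted p = 0.0139). The regions did not overlap for any of these genes. Rxrg, a retinoid X receptor, was at 61.4 and 45.6 CPM in striatum and 2.84 and 1.59 CPM in cortex (log2 fold change 4.59, SE 0.81, adjusted p = 0.0332). Syndig1l and Slc35d3, both known from striatal projection neurons, had log2 fold changes of 4.33 and 6.17, with adjusted p-values of 0.00566 and 0.0145.

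The genes with the largest cortical excess included genes of glutamatergic neurons. Neurod2, a basic helix-loop-helix factor of cortical excitatory neurons (chromosome 11, 98325415 to 98329648, minus strand of GRCm38), was at 454 and 463 CPM in cortex and 3.54 and 3.32 CPM in striatum (log2 fold change -7.06, SE 0.86, adjusted p = 0.00882). Slc17a7, the vesicular glutamate transporter VGLUT1, was at 309 and 394 CPM in cortex and 2.7 and 5.67 CPM in striatum (log2 fold change -6.40, SE 1.02, adjusted p = 0.0273). Every cortex library was far above every striatum library for these genes. Emx1, a homeobox factor of the dorsal forebrain, was at 28.9 and 21.8 CPM in cortex and 0.373 and 0.321 CPM in striatum (log2 fold change -6.14, SE 0.49, adjusted p = 0.000185). Slc30a3, the zinc transporter of glutamatergic vesicles, was at 97.8 and 108 CPM in cortex and 2.33 and 0.856 CPM in striatum (log2 fold change -5.98, SE 0.46, adjusted p = 0.000453). Neurod6, Dkkl1, Prdm8, Gm11549 and Rspo2 had log2 fold changes of -7.01, -6.94, -5.78, -6.43 and -5.54. The striatum values of Dkkl1, Gm11549 and Rspo2 rest on 3, 4 and 4 reads, and the ratio of cortex to striatum for Dkkl1 had a 95% exact interval from 45 to 644 for counting error only.

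**Figure D2:**
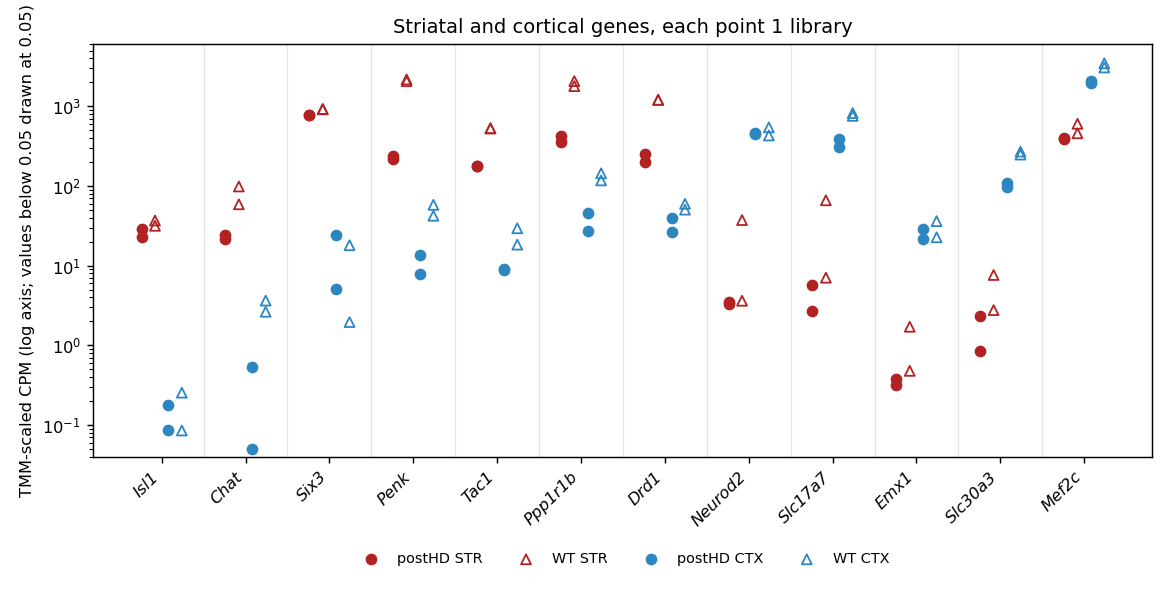
TMM-scaled CPM on a log axis of 12 striatal and cortical genes, with 1 point per library (filled circles post-symptomatic HD, open triangles WT, red striatum, blue cortex). The regions stay apart in post-symptomatic HD for all 12 genes, while Penk in striatum sits at 237 and 219 CPM in HD and at 2183 and 2074 CPM in WT.

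With 12 libraries the shared genes of striatal projection neurons were fewer among the calls than in WT. Beside this and every other comparison of HD with WT stands the share of counts on Rn45s, a ribosomal RNA precursor, which was 10.5% to 15.2% in the 8 HD libraries and 4.32% to 5.62% in the 4 WT libraries, and whose part in the results was not tested. Of 31 listed genes 30 were tested. In post-symptomatic HD 9 were called higher in striatum and none higher in cortex, against 27 and none in WT and 22 and none in pre-symptomatic HD. At an unadjusted p under 0.05 the same edgeR fit gave 25 of the 30 in post-symptomatic HD. A fit of the post-symptomatic HD and WT libraries alone, described below, called 23 in post-symptomatic HD and 27 in WT. The median log2 difference over the 30 genes was 1.92 in post-symptomatic HD, 2.68 in pre-symptomatic HD and 3.24 in WT, while the median over all genes tested was -0.02, 0.02 and 0.02. The fitted difference was lower in post-symptomatic HD than in WT for 30 of the 30 and for 7446 of all 14706 genes, and the change itself is tested below. DESeq2 called 22 of them in post-symptomatic HD and the fit without replicate 2 of post-symptomatic HD cortex called 2, with a median of 2.13. In 28 of the 30 every striatum library was above every cortex library, against 22.5% of all genes.

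Genes of this list that were called higher in striatum in post-symptomatic HD included signalling components of high abundance. Ppp1r1b, which encodes the dopamine- and cAMP-regulated phosphoprotein DARPP-32, was at 353 and 427 CPM in striatum and 27.6 and 45.2 CPM in cortex of post-symptomatic HD mice, and at 2081 and 1797 CPM and 144 and 118 CPM in WT mice. The log2 difference was 3.42 in post-symptomatic HD (adjusted p = 0.0095) and 3.89 in WT (adjusted p = 0.00238). Every library of either region lay below the WT libraries of that region. Gnal, the G protein alpha subunit that couples D1 and A2a receptors to adenylyl cyclase, was at 387 and 393 CPM in striatum and 101 and 87.6 CPM in cortex (log2 fold change 2.05, SE 0.28, adjusted p = 0.00479). Rgs8, Rasd2, Rasgrp2, Adora2a and Gng7 also passed, with log2 fold changes of 1.33, 2.47, 2.21, 3.92 and 2.55, against 1.58, 2.86, 4.22, 5.61 and 4.24 in WT. To pass in post-symptomatic HD does not mean that the difference was as large as in WT: that of Gng7 was smaller in the 8-library fit, as given below, and that of Rasgrp2 by DESeq2 (change of -1.97, adjusted p = 0.0192).

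With 12 libraries other members of the list did not pass in post-symptomatic HD although they passed in WT. Drd1, the dopamine D1 receptor, was at 252 and 201 CPM in striatum and 40.2 and 26.1 CPM in cortex of post-symptomatic HD mice, with an adjusted p of 0.0554 that missed the threshold. In WT mice it was at 1207 and 1213 CPM and 59.8 and 50.5 CPM. The striatum libraries of both genotypes stood above their cortex libraries. Foxp1 and Bcl11b, factors of projection neuron identity, had log2 differences of 0.67 and 1.64 in post-symptomatic HD (adjusted p = 0.43 and 0.0932) against 1.49 and 2.75 in WT. Ptpn5, the striatal-enriched phosphatase STEP, was not called in post-symptomatic HD (adjusted p = 0.232), and its WT difference was 2.07. Kcnj4, an inward rectifier potassium channel that passed in neither genotype, was at 108 and 157 CPM in striatum and 149.5 and 189 CPM in cortex of post-symptomatic HD mice, where the regions overlapped. Drd2, the D2 receptor, had 0 to 4 reads in every library of the series and was not tested.

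The test of the change itself was made on the regional difference in post-symptomatic HD less that in WT. With all 12 libraries 0 of 14706 genes (0%) passed by edgeR's quasi-likelihood test, 1412 had an unadjusted p under 0.05, and DESeq2 called 108. Against pre-symptomatic HD 0 genes (0%) passed, 634 had an unadjusted p under 0.05, and DESeq2 called 16. The 2 unlike libraries of pre-symptomatic HD striatum enter the spread of these tests. A fit of the 4 post-symptomatic HD and 4 WT libraries alone, chosen after the data were seen, called 294 of 14419 genes, 138 (0.957%) with a lower and 156 (1.08%) with a higher value of striatum less cortex than in WT. Of the 294, DESeq2 with all libraries called 86, which is 79.6% of its own calls. The libraries of the smaller fit are all in the DESeq2 fit, so this overlap is not independent. On simulated data DESeq2 too gave more false calls of a change than the threshold allows. Without replicate 2 of post-symptomatic HD cortex the 8-library fit called 41 genes, and without either WT library at 8 weeks it called 2. It had 3 residual degrees of freedom, and on simulated data a large share of its calls of a change were false and few of the true changes were recovered, so its adjusted p-values may be too small. Its calls are given as calls of that fit below.

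Most of the 294 genes had a regional difference that was smaller in size in post-symptomatic HD than in WT, on either side of 0, and in 131 of them the fitted difference had opposite signs in the 2 genotypes. In 123 genes a striatal excess in WT was nearer to 0, in 120 genes a cortical excess in WT was nearer to 0, and in 51 genes the difference was farther from 0. Of 2685 genes that this fit called between regions in WT, 790 were called the same way in post-symptomatic HD and 10 the opposite way, 243 had a smaller difference by the test, and in 114 of these the 95% interval of the post-symptomatic difference held 0. With 12 libraries 303 of 1471 genes called in WT were called the same way and none the opposite way. Genes chosen for a large value in WT tend to be smaller elsewhere by the choice alone. The comparison was therefore also made on genes called in pre-symptomatic HD, whose libraries give neither value. Of 319 such genes higher in striatum, 72.7% had a lower difference in post-symptomatic HD than in WT, with medians of 1.01 and 1.57. Of 604 such genes higher in cortex, 70.2% were nearer to 0 or beyond it, with medians of -0.87 and -1.23.

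From the symptomatic side, most regional genes were regional in WT too. Of 95 genes called higher in post-symptomatic HD striatum with 12 libraries, 82 (86.3%) were called the same way in WT, and of 277 called higher in cortex, 221 (79.8%). None of these was called the opposite way in WT. In the 8-library fit the shares were lower, with 273 of 509 (53.6%) striatal and 517 of 684 (75.6%) cortical genes called the same way in WT and 6 and 4 the opposite way. With 12 libraries the WT value was the smaller in that direction in 185 of the 372.

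The smaller differences came from either region. Among the 123 genes with a striatal excess in WT, every post-symptomatic striatum library was below every WT striatum library in 117, and every post-symptomatic cortex library was above every WT cortex library in 51. Among the 120 genes with a cortical excess in WT, cortex was below WT in 103 and striatum was above WT in 94, with both in 77. These genes were chosen by the same values, so the counts describe them and test nothing. Over all 10763 genes at 5 CPM or more, 33.3% were below WT in striatum without overlap, 34.8% were below WT in cortex and 29.2% were above WT in striatum. In cortex 3300 of them were above WT without overlap.

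The striatal genes with a smaller difference included enzymes of cyclic nucleotide signalling. Pde10a, the phosphodiesterase of striatal projection neurons (chromosome 17, 8525372 to 8986648, plus strand of GRCm38), was at 58.7 and 59 CPM in striatum and 19.1 and 17 CPM in cortex of post-symptomatic HD mice. In WT it was at 295 and 271 CPM in striatum and 13 and 7.91 CPM in cortex. The striatum level was far below that in WT and the cortex level was above WT in both libraries. The regional log2 difference was 1.74 in post-symptomatic HD and 4.78 in WT in the 8-library fit, a change of -3.04 (SE 0.24, adjusted p = 0.000217). Adcy5, the main adenylyl cyclase of striatum (chromosome 16, 35154877 to 35305738, plus strand of GRCm38), was at 86.4 and 70.3 CPM in striatum and 35.7 and 31.6 CPM in cortex, against 467 and 466 CPM and 37.8 and 33.2 CPM in WT. Its regional difference changed by -2.45 (SE 0.22, adjusted p = 0.000487). For Adcy5 the cortex libraries overlapped between genotypes, and the striatum libraries were far below WT. Pde1b, a calmodulin-dependent phosphodiesterase, was at 196 and 227 CPM in striatum and 84.4 and 86.8 CPM in cortex, against 1224 and 1174 CPM and 139 and 118 CPM in WT, a change of -1.88 (SE 0.20, adjusted p = 0.00195).

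The 8-library fit was repeated 8 times with 1 library left out. The change of Pde10a then ranged from -3.32 to -2.78 and that of Adcy5 from -2.61 to -2.37. It ranged more widely for some genes named below, such as Hapln4 (1.77 to 3.025) and Frzb (2.06 to 3.49). With 12 libraries the adjusted p-values of Pde10a and Adcy5 were 0.258 and 0.249 by edgeR and 0.000214 and 0.000592 by DESeq2. DESeq2 also called changes such as those of Rarb and Frzb (0.00558 and 0.00405). It did not call those of Clspn, Cbln2, Hapln4 and Adra1b (0.176, 0.0695, 0.517 and 0.591). Pde10a and Adcy5 were both called higher in striatum in WT and in pre-symptomatic HD. Neither was called in post-symptomatic HD with 12 libraries (edgeR adjusted p = 0.0882 and 0.121). The 8-library fit called both higher in striatum there, with log2 differences of 1.74 and 1.26 (adjusted p = 4.59e-05 and 0.000303). Gng7, a G protein gamma subunit that partners Gnal, changed by -1.65 (SE 0.24, adjusted p = 0.00839) in the 8-library fit, and Drd1 by -1.64 (SE 0.27, adjusted p = 0.0153). Over the 30 tested genes of projection neurons 9 passed as smaller and none as larger in that fit, between 2 and 13 with 1 library left out. The change was not called for Ppp1r1b, Gnal or Penk, at -0.43, -0.22 and -0.97 (adjusted p = 0.527, 0.615 and 0.128).

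Transcription factors were also among them. Zfp503, a zinc finger factor of striatal development, was at 29.6 and 25.7 CPM in striatum and 18.8 and 15.4 CPM in cortex of post-symptomatic HD mice, and at 33.4 and 42.7 CPM and 2.96 and 2.3 CPM in WT. The cortex libraries were severalfold above those of WT while the striatum libraries were somewhat below. The difference changed by -3.10 (SE 0.35, adjusted p = 0.00256) and its post-symptomatic value was 0.73. Rarb, a retinoic acid receptor, was at 35.1 and 22.6 CPM in striatum and 5.41 and 9.63 CPM in cortex, against 88 and 118 CPM and 4.66 and 2.98 CPM in WT, a change of -2.76 (SE 0.50, adjusted p = 0.0306). Top2b overlaps Rarb on the other strand. Clspn, Cdc42ep3, Mettl10, Myo5b, Krt10 and Trank1 completed the 10 largest changes toward cortex, with changes from -2.65 for Clspn to -2.01 for Trank1.

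For some of these genes almost nothing of the regional difference was left. Myo5b, an unconventional myosin of vesicle transport, was at 11.9 and 16.1 CPM in striatum and 10.3 and 18.2 CPM in cortex of post-symptomatic HD mice, and at 52.5 and 51.5 CPM and 11.3 and 11.4 CPM in WT. Its regional log2 difference was 0.01 in post-symptomatic HD and 2.18 in WT (adjusted p of the change = 0.0201). Krt10, a keratin, was at 23 and 14.8 CPM in striatum and 19.4 and 19.96 CPM in cortex, against 53.2 and 76.5 CPM and 17.9 and 13.8 CPM in WT, with differences of -0.02 and 2.01. In WT the adjusted p of the regional difference in the 8-library fit was 0.000158 for Myo5b and 0.000189 for Krt10. In pre-symptomatic HD the 12-library fit gave differences of 1.34 for Myo5b and 0.39 for Krt10 (edgeR adjusted p = 0.111 and 0.544). The small difference of Krt10 was thus not particular to symptomatic mice.

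**Figure D3:**
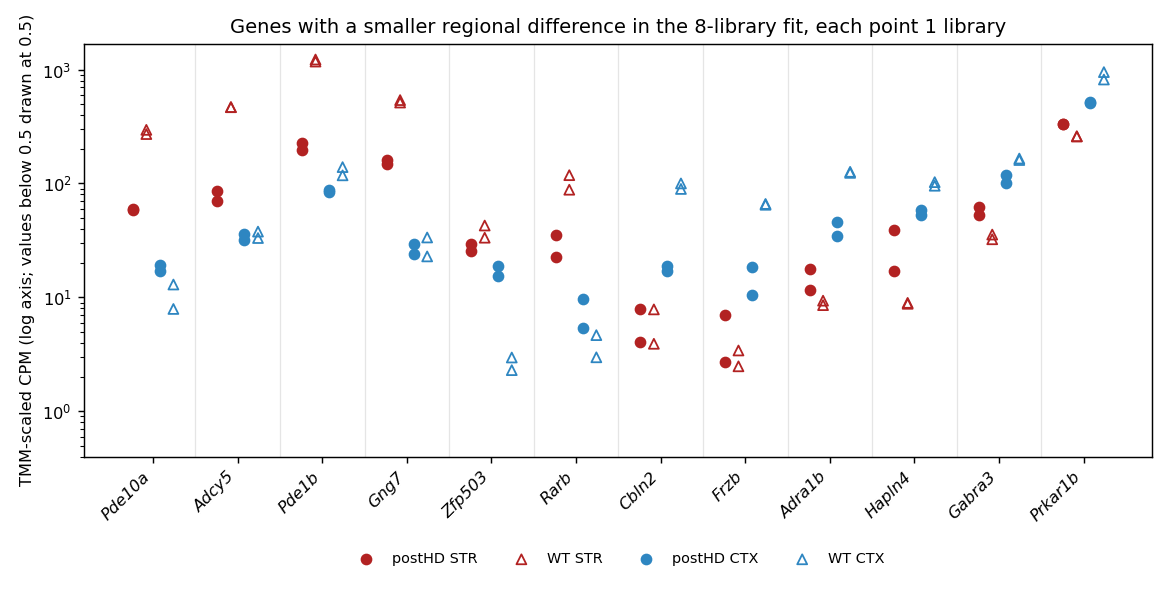
TMM-scaled CPM on a log axis of 12 genes whose regional difference was smaller in post-symptomatic HD in the 8-library fit, with 1 point per library (filled circles post-symptomatic HD, open triangles WT, red striatum, blue cortex). The red and blue triangles lie farther apart than the red and blue circles for each gene, and Cbln2 in cortex sits at 18.8 and 17.0 CPM in HD against 89.4 and 99.96 CPM in WT.

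The genes that changed toward striatum included secreted and membrane proteins. Cbln2, a secreted synaptic organizer, was at 18.8 and 17 CPM in cortex and 7.83 and 4.06 CPM in striatum of post-symptomatic HD mice, and at 89.4 and 99.96 CPM and 3.91 and 7.84 CPM in WT, a change of 2.53 (SE 0.41, adjusted p = 0.0139). Frzb, a secreted Wnt antagonist, was at 18.4 and 10.5 CPM in cortex against 64.9 and 66 CPM in WT, and at 2.7 and 7.06 CPM in striatum against 2.48 and 3.42 CPM, a change of 2.95 (SE 0.60, adjusted p = 0.0455). For both genes the cortex libraries were far below WT, and the striatum libraries overlapped with WT. Adra1b, the alpha-1B adrenergic receptor, was at 34.5 and 45.4 CPM in cortex and 11.6 and 17.6 CPM in striatum against 126 and 124 CPM and 9.35 and 8.54 CPM in WT, a change of 2.39 (SE 0.32, adjusted p = 0.00768). Hapln4, a link protein of perineuronal nets, was at 17 and 39 CPM in striatum against 8.77 and 8.94 CPM in WT and at 58 and 52.5 CPM in cortex against 95.4 and 103 CPM, a change of 2.54 (SE 0.47, adjusted p = 0.0378). Its 2 post-symptomatic striatum libraries lay well apart. Pvalb, a marker of fast-spiking neurons that bear such nets, was at 44.6 and 204 CPM in these libraries and 20.1 and 12.5 CPM in WT striatum, and its part in the values of Hapln4 was not tested. Rassf4, Pcdh20, Pdlim1, Necab3 and Zbtb16 were also among the 10 largest changes toward striatum, with changes from 2.47 for Zbtb16 to 2.93 for Rassf4. Rassf4 went from -1.42 in WT to 1.51 in post-symptomatic HD and so was not nearer to 0.

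Differences that were larger in post-symptomatic HD than in WT were fewer. Ankrd63, an ankyrin repeat protein of forebrain neurons, was at 43.3 and 34.4 CPM in striatum and 0.516 and 0.971 CPM in cortex of post-symptomatic HD mice, and at 166 and 175 CPM and 16.5 and 13.9 CPM in WT. All HD libraries were below all WT libraries of their region, and cortex was lower by the larger factor. The difference changed by 2.25 (SE 0.37, adjusted p = 0.0132) in the 8-library fit, and its adjusted p with 12 libraries was 0.542. Cacna2d2, a calcium channel subunit, was at 137 and 155 CPM in striatum and 34.3 and 30.2 CPM in cortex, against 167 and 118 CPM and 65.4 and 66.9 CPM in WT, a change of 1.14 (SE 0.24, adjusted p = 0.0317). Its cortex libraries were below WT and its striatum libraries overlapped with WT.

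**Figure D4:**
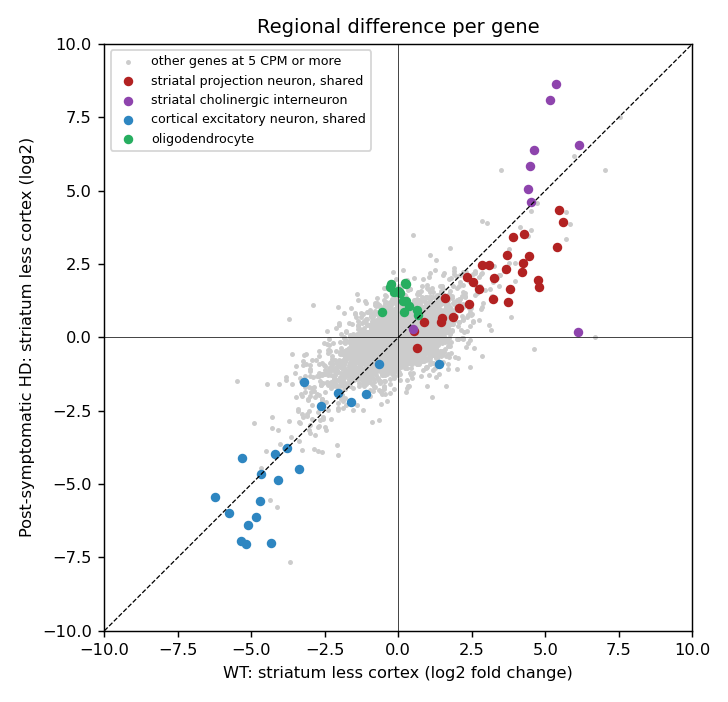
Regional difference (striatum less cortex, log2 fold change of the 12-library fit) in post-symptomatic HD (vertical axis) against WT (horizontal axis), with 1 point per gene, 4 gene lists in colour and a dashed line of equal values. The projection neuron genes lie below the line, with medians of 1.92 and 3.24, and the oligodendrocyte genes lie above it, with medians of 1.52 and 0.15.

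Markers of striatal cholinergic interneurons were called higher in striatum in both genotypes. Of 9 genes tested 7 were called higher in striatum in post-symptomatic HD and 7 in WT, against 0.646% and 3.91% of all genes. The medians were 5.84 and 4.62, and the former was 5.07 with genes absent from cortex set at a floor of 3 reads. Chat, the acetylcholine-synthesizing enzyme, was at 21.4 and 24.6 CPM in striatum and 0 and 0.53 CPM in cortex of post-symptomatic HD mice, and at 98.7 and 59 CPM and 3.64 and 2.64 CPM in WT (log2 fold change 6.39, SE 0.59, adjusted p = 0.000842 in post-symptomatic HD). Slc18a3, the vesicular acetylcholine transporter, lies within Chat on the same strand and was at 4.1 and 7.27 CPM in striatum and 0.172 and 0 CPM in cortex. Reads of this pair could have been shared. Slc5a7, the choline transporter, was at 8.39 and 7.06 CPM in striatum and 0 and 0.442 CPM in cortex, against 31 and 24.1 CPM and 1.19 and 1.36 CPM in WT. In striatum these genes were below WT in both libraries, and cortex held few or no reads. Without replicate 2 of post-symptomatic HD cortex 3 of the 9 were called.

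Peptide genes differed in how much of their regional pattern was left. Of 22 neuropeptide genes 2 were called higher in striatum and 4 higher in cortex in post-symptomatic HD, against 4 and 7 in WT. Over all genes the shares were 0.646% and 1.88% in post-symptomatic HD and 3.91% and 6.09% in WT. Vip, a peptide of cortical interneurons, was at 10.7 and 14.1 CPM in cortex and 0.0932 and 1.07 CPM in striatum (log2 fold change -4.45, SE 0.66, adjusted p = 0.0085). Chgb, a granin of secretory vesicles, was at 374 and 371 CPM in cortex and 144 and 169 CPM in striatum, against 558 and 542 CPM and 251 and 273 CPM in WT (log2 fold change -1.25, SE 0.16, adjusted p = 0.00287 in post-symptomatic HD). Grp and Cort also passed as higher in cortex, at -3.86 and -4.41. Sst, the somatostatin precursor, was at 143 and 110.3 CPM in striatum and 87.6 and 76.4 CPM in cortex, and at 315 and 299 CPM and 392 and 435 CPM in WT. Striatum was above cortex in post-symptomatic HD and below it in WT, with no overlap in either, a pattern of opposite regions that 7.9% of all genes at 5 CPM or more showed in these genotypes, and the change was 1.10 (SE 0.23, adjusted p = 0.0313) in the 8-library fit and missed the threshold with 12 libraries (adjusted p = 0.307). Pdyn, the dynorphin precursor, was at 55.9 and 26.1 CPM in striatum and 2.23 and 3.27 CPM in cortex, with an adjusted p of 0.0951.

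Promoters of 4 of these peptide and granin genes hold the full cAMP response element TGACGTCA, the palindrome bound by CREB, in the 250 bases before the start in RefSeq (GRCm38.p6). They are shown because they share this element. Their regional calls follow, the patterns were not compared by a test, and the part of the element in them was not tested. Chgb was called higher in cortex in post-symptomatic HD and WT, and Scg2 and Cartpt were not called in post-symptomatic HD. Sst lay on opposite sides in post-symptomatic HD and WT, a change that missed the threshold with 12 libraries by edgeR (adjusted p = 0.307). The pieces are written 5′ to 3′ on the gene's strand, with the element in capitals.
Sst, chr16:23890861-23890916, minus strand: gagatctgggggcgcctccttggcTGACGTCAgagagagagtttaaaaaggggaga
Scg2, chr1:79440063-79440118, minus strand: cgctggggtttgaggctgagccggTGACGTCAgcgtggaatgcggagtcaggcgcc
Chgb, chr2:132781546-132781601, plus strand: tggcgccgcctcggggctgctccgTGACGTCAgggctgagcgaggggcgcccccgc
Cartpt, chr13:99900764-99900819, minus strand: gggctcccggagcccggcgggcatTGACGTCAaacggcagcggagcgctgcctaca

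The element stood in 1.55% of all 32851 promoter windows and in 4 of 19 windows of the neuropeptide list, which covered 17 of its 22 genes. The shorter TGACG, on either strand and contained in the full element, stood in 17.8% of all windows, in 68.4% of the neuropeptide windows, in 56.2% of 32 windows of activity-induced genes and in 16.7% of 48 windows of projection neuron genes. Scg2, a granin, was at 323 and 191 CPM in striatum and 138 and 163 CPM in cortex, with a regional log2 difference of 0.77 (adjusted p = 0.418). Cartpt was at 6.53 and 0.535 CPM in striatum and 2.15 and 0.53 CPM in cortex, with low levels in all 4 libraries and the libraries of each region far apart.

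Activity-induced genes leaned to cortex in HD mice of either stage. Of 27 tested, 2 were called higher in cortex and none higher in striatum, against 1.88% and 0.646% of all genes. In WT 5 and none were called, against 6.09% and 3.91% of all genes. The median difference was -0.79 in post-symptomatic HD, -0.77 in pre-symptomatic HD and -0.05 in WT. Bdnf, a neurotrophin made by cortical neurons, was at 64.4 and 66.9 CPM in cortex and 5.78 and 3.85 CPM in striatum (log2 fold change -3.76, SE 0.67, adjusted p = 0.0303), and Ier5 was the other (log2 fold change -1.55, SE 0.30, adjusted p = 0.0278). Egr1, an immediate early factor, was at 112 and 62.4 CPM in striatum and 295 and 182 CPM in cortex of post-symptomatic HD mice, and at 432 and 416 CPM and 471 and 351 CPM in WT, with adjusted p-values of 0.0882 and 0.948. Nr4a1, an orphan nuclear receptor of the same kind, was at 14.1 and 8.02 CPM in striatum and 24.1 and 21.5 CPM in cortex, against 72.8 and 134 CPM and 48.7 and 53.6 CPM in WT. Striatum was below cortex in HD and above it in WT, with no overlap in either, and the change in the 8-library fit was -1.94 (SE 0.36, adjusted p = 0.0245). In 18 of the 27 genes every cortex library was above every striatum library in post-symptomatic HD, and in none the reverse. Over all genes these shares were 26.9% and 22.5%.

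Glutamatergic neuron genes were called higher in cortex in both genotypes. Of 21 tested, 15 were called higher in cortex in post-symptomatic HD and 15 in WT, against 1.88% and 6.09% of all genes. The medians were -4.50 and -4.20, and none was called higher in striatum. Without replicate 2 of post-symptomatic HD cortex 11 were called, with a median of -4.46. Mef2c, a factor of excitatory neurons, was at 2086 and 1973 CPM in cortex and 390.4 and 403 CPM in striatum, against 3083 and 3483 CPM and 605 and 459.96 CPM in WT (log2 fold change -2.36, SE 0.18, adjusted p = 0.000157 in post-symptomatic HD). Mef2c was lower than in WT in all HD libraries of either region. Nr2f1, a patterning factor, was the member whose difference passed as smaller, with 75.6 and 72.4 CPM in striatum and 237 and 186 CPM in cortex against 30.2 and 31.6 CPM and 258 and 318 CPM in WT and a change of 1.74 (SE 0.22, adjusted p = 0.00618).

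Layer markers were mixed. Of 15 upper layer genes 1 was called higher in striatum and 2 higher in cortex, and of 20 deep layer genes 1 and 3. Over all genes the shares were 0.646% and 1.88%. Rasgrf2 was at 128 and 94 CPM in cortex and 45.9 and 45.9 CPM in striatum, against 260.2 and 307 CPM and 67.6 and 31.4 CPM in WT (log2 fold change -1.27, SE 0.27, adjusted p = 0.0415 in post-symptomatic HD). Fezf2, a factor of subcortical projection neurons, was at 50.5 and 38.6 CPM in cortex and 4.66 and 1.5 CPM in striatum (log2 fold change -3.83, SE 0.55, adjusted p = 0.0101). Both genes had a clear cortical excess. Lamp5, of superficial neurons, was at 35.6 and 40.00 CPM in cortex and 28.4 and 41 CPM in striatum of post-symptomatic HD mice, where the regions overlapped, against 182 and 236 CPM and 91.2 and 96.9 CPM in WT. The change of Lamp5 was 1.06 (SE 0.26, adjusted p = 0.0577), which missed the threshold. Foxp2, a deep layer gene that projection neurons of the striatum also express, was the gene of its list called higher in striatum (log2 fold change 2.03, SE 0.37, adjusted p = 0.0231).

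Among receptors and channels few genes were called between regions with 12 libraries, and the counts depended on the tool. Over all genes 0.646% were called higher in striatum and 1.88% higher in cortex. In lists of this length 1 or 2 calls already lie above these shares. Dopamine and cAMP signalling genes lay furthest above the striatal share. Of 13 GABA receptor genes none was called in post-symptomatic HD, against 1 higher in striatum and 4 higher in cortex in WT. At an unadjusted p under 0.05 edgeR gave 6 of the 13, and DESeq2 called 2. Gabra3, an alpha subunit, was at 52.9 and 61.8 CPM in striatum and 119 and 101 CPM in cortex against 32.3 and 35.6 CPM and 160.4 and 165 CPM in WT, with a change of 1.37 (SE 0.22, adjusted p = 0.0116). Of 45 potassium channel genes none was called higher in striatum and 1 higher in cortex, against 5 and 9 in WT, while 17 had an unadjusted p under 0.05, DESeq2 called 11 and the 8-library fit called 18. In the 8-library fit 7 of these 45 changed, 2 with a lower and 5 with a higher value of striatum less cortex. Kcnc1, a fast delayed rectifier, was at 73.9 and 118 CPM in striatum and 86.8 and 78.6 CPM in cortex, against 46.2 and 41 CPM and 148 and 147 CPM in WT, a change of 2.03 (SE 0.28, adjusted p = 0.00839). Kcna4 was at 36.6 and 39.6 CPM in striatum and 20.2 and 21.2 CPM in cortex, against 75 and 79.5 CPM and 13.4 and 15.5 CPM in WT, a change of -1.50 (SE 0.25, adjusted p = 0.0132). Striatum was above WT for Kcnc1 and below it for Kcna4. Of 24 calcium and sodium channel genes 1 was called higher in striatum and 2 higher in cortex, against 7 and 5 in WT, and of 23 glutamate receptor genes 1 and 1, against 3 and 4. DESeq2 called 6 of the channel genes and 2 of the glutamate receptor genes. Grm5, the receptor mGluR5, was at 280.3 and 214 CPM in striatum and 211 and 212 CPM in cortex against 582 and 684 CPM and 206 and 179 CPM in WT, a change of -1.45 (SE 0.23, adjusted p = 0.0126). Of 43 genes of dopamine and cAMP signalling, a list that shares 11 genes with the projection neuron list, 5 were called higher in striatum and 2 higher in cortex, against 15 and 6 in WT, and DESeq2 called 16. Prkar1b, a regulatory subunit of protein kinase A, was at 506 and 519 CPM in cortex and 332 and 331 CPM in striatum against 817 and 949 CPM and 259 and 259 CPM in WT, a change of 1.18 (SE 0.19, adjusted p = 0.0132).

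**Figure D5:**
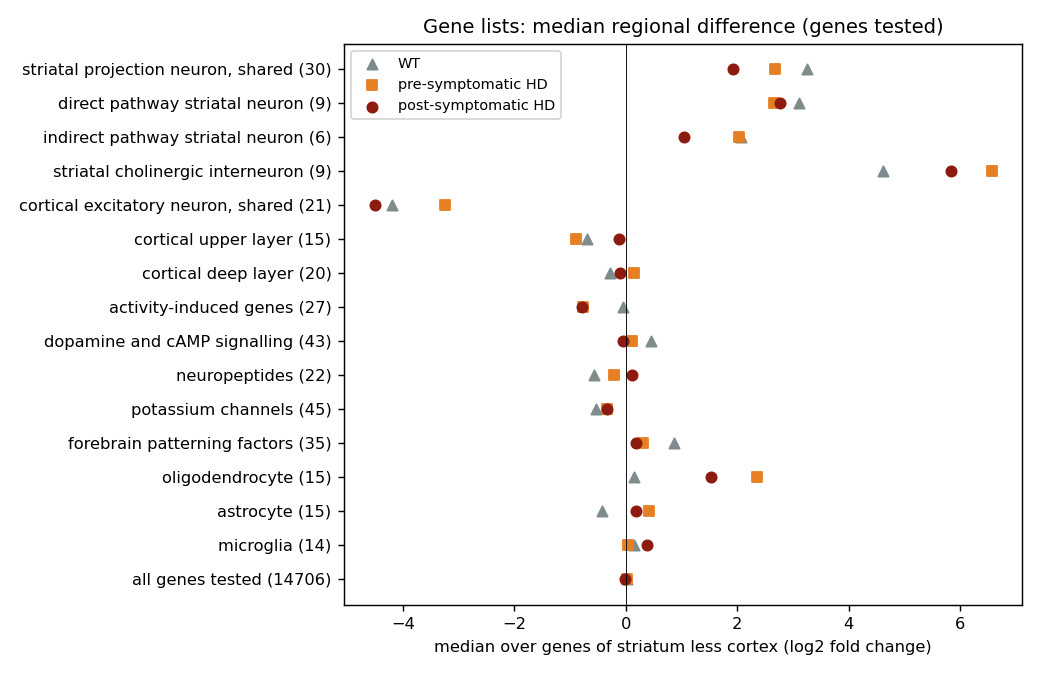
Median over the tested genes of each list of the regional difference (striatum less cortex, log2 fold change of the 12-library fit), in WT (triangles), pre-symptomatic HD (squares) and post-symptomatic HD (circles). The projection neuron list lies at 3.24 in WT and 1.92 in post-symptomatic HD, while the cortical excitatory list lies at -4.20 and -4.50.

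Genes of oligodendrocytes, the myelin-forming glia, lay higher in striatum than in cortex in HD mice of either stage. In 15 of 15 markers every striatum library was above every cortex library, against 22.5% of all genes, and the median difference was 1.52 in post-symptomatic HD, 2.36 in pre-symptomatic HD, where replicate 2 of striatum stood apart, and 0.15 in WT. None of the 15 passed with 12 libraries by edgeR, 5 had an unadjusted p under 0.05, and DESeq2 called 2. The 8-library fit called 13 of them higher in striatum in post-symptomatic HD, and called 6 of them as changed from WT. Without replicate 2 of post-symptomatic HD cortex it called 0 of these changes, with a median of 1.43. The markers summed to 4897 and 8121 CPM in the striatum libraries and 2726 and 3030 CPM in the cortex libraries, against 5645 and 6512 CPM and 4563 and 4827 CPM in WT. In cortex 14 of the 15 were below WT in both libraries, and in striatum 8 were above WT and 1 below. Among all genes at 5 CPM or more, 34.8% were below WT in cortex, 29.2% above WT in striatum and 33.3% below it. Mag, a myelin glycoprotein, was at 262 and 511 CPM in striatum and 111 and 125 CPM in cortex, against 163 and 122 CPM and 162 and 177 CPM in WT. Cnp, a myelin enzyme, was at 303 and 464 CPM and 139.6 and 125 CPM, against 224 and 217 CPM and 193 and 240.2 CPM in WT, a change of 1.55 (SE 0.27, adjusted p = 0.0211). Replicate 2 of striatum was above replicate 1 for both genes, and how much white matter each piece held was not tested.

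Markers of other tissue given here had at most 1 call a list between the regions by edgeR with 12 libraries. Over all genes 0.646% were called higher in striatum and 1.88% higher in cortex. In lists this short 1 call already lies above these shares, so no result about these lists follows from the counts. Of 15 astrocyte genes 1 was called, Slc4a4, a bicarbonate transporter, at 156 and 210.1 CPM in striatum and 74.3 and 65.3 CPM in cortex (log2 fold change 1.39, SE 0.18, adjusted p = 0.00315). Of 14 microglia genes and 14 endothelial and mural genes none was called by edgeR, and the medians were 0.38 and 0.12. At an unadjusted p under 0.05 there were 5 microglia and 0 endothelial and mural genes, against 2323 of all 14706, and DESeq2 called 1 and 0. In 9 of the 14 microglia genes every striatum library was above every cortex library, and in none the reverse. Over all genes these shares were 22.5% and 26.9%. Meninges markers summed to 1038 and 2755 CPM in striatum and 2014 and 3437 CPM in cortex of post-symptomatic HD mice, against 490.3 and 401 CPM and 2086 and 1819 CPM in WT, and 1 of 11 was called higher in cortex. Thalamus markers summed to 434 and 494 CPM and 383 and 373 CPM, against 308 and 304 CPM and 423 and 439 CPM in WT. Of the 17 choroid plexus markers none was called by edgeR, 3 had an unadjusted p under 0.05 and DESeq2 called 1. Ttr had a regional log2 difference of -4.02 with an SE of 2.75, since 1 of the 2 cortex libraries held nearly all of its reads. The 20 genes with the largest regional differences and the 20 with the largest changes kept their direction under every alternative tried. Not every call was kept. The 8-library fit did not call Six3, Neurod2, Neurod6 or Slc17a7 between regions in post-symptomatic HD (adjusted p = 0.124, 0.0764, 0.143 and 0.0774). It called the rest of the 20 regional genes.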

How the data were processed

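RNA was extracted with Trizol and libraries were made from 500 ng with the Lexogen QuantSeq kit. The authors deposited raw read counts per gene, 1 file per library. The submitters' processing notes name Bowtie2, bedtools and the mm10 build. Aligner settings, annotation, counting rule and use of strand are not given in the sources used here, so overlapping genes may share reads. The reads carried no molecular identifiers, and intervals cover counting error only.

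Of 23282 gene rows, 14706 passed edgeR's filterByExpr with a minimum count of 10 and were fitted with edgeR 4.0.16 (R 4.3.3, TMM, robust quasi-likelihood test) over all 12 libraries, with a mean for each HD group and each WT region and a term for WT age (5 residual degrees of freedom). The WT value joins 1 library of each age, and so of each sex, per region. Contrasts were striatum less cortex, and P values were adjusted by Benjamini-Hochberg at 0.05. Alternatives included DESeq2 1.42.0 and each library left out. A fit of the 4 post-symptomatic HD and 4 WT libraries was chosen after the data were seen. The steps were tested on simulated data, where the tests of a change gave more false calls than the threshold allows.

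Members and lists were chosen with earlier results of these data known. Named genes were the 10 with the largest difference per direction among those past the threshold whose mean reached 5 CPM and whose groups did not overlap, plus list members. Since no gene passed the test of change with 12 libraries, that rule was applied to the 8-library fit. Foxp2, Pvalb and other genes given as examples were list members or chosen after their values were seen. Positions are from GENCODE M21 (GRCm38, the same assembly as mm10) and promoters from RefSeq. Some genes are not reported here.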

Additional observations from a re-analysis of the deposited data

Results flagged for a closer look

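In 25 of 390 list members at 5 CPM or more (6.41%), striatum and cortex did not overlap in either genotype and the higher region was the opposite one, against 7.9% of all genes at that level. Of the 25 none passed the test of the change with 12 libraries and 8 passed in the 8-library fit, among them Sst, Egr4, Nr4a1, Rgs14, Gjb1, Cryab and Slc6a11. For the others the difference between genotypes was not shown by a test. Among the 25, striatum was the higher region in post-symptomatic HD for Sst, Cux1, Etv1, Grin3a, Gjb1, Cryab, Sox10, S100b, Slc6a11, Itih3, Pltp, Lef1 and Plekhg1, with log2 differences of 0.63, 0.13, 0.57, 0.16, 1.82, 0.87, 1.42, 0.86, 1.02, 1.68, 0.21, 0.64 and 0.86 in that order. Cortex was the higher region for Kit, Egr2, Egr4, Nr4a1, Homer1, Gnao1, Rgs14, Grik5, Grm7 and Cacnb1, with log2 differences of -0.90, -1.73, -0.66, -1.04, -0.41, -0.36, -0.43, -0.50, -0.28 and -0.16 in that order. Gjb1, Cryab and Sox10 are expressed in oligodendrocytes, whose summed markers were 4897 and 8121 CPM in post-symptomatic HD striatum against 2726 and 3030 CPM in cortex, and the part of these cells in the values was not tested. Egr2, Egr4, Nr4a1 and Homer1 are induced by neuronal activity, and for these the post-symptomatic value lay on the cortical side.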

How the results depend on the processing

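The number of regional calls in post-symptomatic HD was 372 and became 827 with DESeq2 (310 striatal, 517 cortical), 229 with the 8 HD libraries, 855 with the 4 post-symptomatic libraries, 1193 with post-symptomatic HD and WT libraries and 125 at an adjusted p under 0.01. With 1 library left out it ranged from 97 to 1555 with 12 libraries and from 560 to 1463 with 8. In pre-symptomatic HD 923 became 1451 with DESeq2 and 335 at 0.01, and 231 to 2016 with 1 library left out. In WT 1471 became 2685 in the 8-library fit and 562 at 0.01, 157 to 3120 with 1 of 12 libraries left out and 831 to 3570 with 1 of 8. The change from WT, with 0 calls, gave 108 with DESeq2, 15 with no filter on low counts and 294 in the 8-library fit, 0 to 550 with 1 of 12 left out and 2 to 1223 with 1 of 8. The change from pre-symptomatic HD, with 0 calls, gave 16 with DESeq2 and 0 to 246 with 1 library left out. Genes called the same way in WT and post-symptomatic HD numbered 303, then 572 with DESeq2, 790 in the 8-library fit and 112 at 0.01, 86 to 983 with 1 of 12 left out and 436 to 945 with 1 of 8. Calls were highest without either pre-symptomatic HD striatum library in the 12-library fits. Where a group was left with 1 library, that library was assumed to vary like the other groups. The labels do not tie replicate numbers to mice. Over 10779 genes the log2 difference of replicate 1 less replicate 2 was taken in each region. That in striatum correlated with that in cortex at 0.271 (post-symptomatic HD) and 0.152 (pre-symptomatic HD). With the replicate block the counts were 442, 1006, 1658, 0, 0 and 347 in the order above. With 2 libraries a group, changes of moderate size were limited by the spread between libraries.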
